A study of Homo sapiens with 16 samples.

Results

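MDA-MB-231 and SUM159, which the sample titles call SUM159PT, are established human cell lines from triple-negative breast cancers, a class of tumour without oestrogen or progesterone receptor and without amplified HER2. The comparison described here is between the untreated states of these lines: 4 libraries of MDA-MB-231 and 4 of SUM159, all given only the solvent DMSO for 48 h, 8 of the 16 libraries of the series. The other 8 received an inhibitor of the kinase YES1 and were not used. Both lines carry the genotype label WT. MDA-MB-231 was plated at 3000000 cells in RPMI and SUM159 at 2000000 cells in Ham's F12, and DMSO was added on the following day. Line, medium and plating density change together in this design and cannot be told apart. The series describes its 4 replicates as technical, so every p-value below measures only the spread between libraries, which may be technical. Of 58735 genes in the deposited table, 16286 passed a filter on low counts and were compared, 13264 of them protein-coding.

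Epithelial cells are held in sheets by E-cadherin, desmosomes, tight junctions and keratin filaments. In the epithelial-to-mesenchymal transition these are exchanged for N-cadherin and other mesenchymal cadherins, vimentin and a secreted matrix, under transcription factors of the ZEB, SNAI and TWIST families. Both lines are usually placed among the mesenchymal-like, claudin-low lines of breast cancer. MDA-MB-231 is known for mutations of BRAF and NF2, and SUM159 for mutations of HRAS and PIK3CA. The counts do not show mutations.

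Total counts of the 8 libraries ran from 15876171 to 36261542, both extremes in SUM159. Levels are given as counts per 1000000 (CPM) of each library's TMM-scaled total, as mean ± SD with n = 4, with MDA-MB-231 named first. Calls rest on edgeR's quasi-likelihood test, with p-values adjusted by Benjamini-Hochberg over the 16286 genes and a threshold of 0.05, and log2 differences are MDA-MB-231 minus SUM159. A gene described as higher in a line was called, and its values in the lines did not overlap unless this is stated. On the first principal component, with 95.4% of the variance, the lines separated, and the second held 1.04%. The biological coefficient of variation between libraries was 4.03% in MDA-MB-231 and 8.22% in SUM159. Protein-coding genes took 97.8% ± 0.0410 of counts in MDA-MB-231 and 97.3% ± 0.145 in SUM159, and the 20 genes with most counts 7.95% ± 0.234 and 10.0% ± 0.421. Each of these shares differed with p = 0.0286 (adjusted p = 0.0429) in a two-sided exact permutation test, the smallest p that 4 against 4 allows. Mitochondrial mRNA took 3.24% ± 0.357 and 3.16% ± 0.674 (exact permutation p = 0.886). Reads of some genes named below cannot be assigned with certainty, because an overlapping gene has at least 10% of their count: ABCB1, ASNS, BCL2L11, BLK, CIITA, CLDN7, CSF1R, ERBB2, ESR1, FADS2, HOXA10, HOXB9, IFIT1, IFIT2, IFIT3, IFITM1, IRF9, JUNB, KIF4A, KRT18, KRT81, MT-CO3, MTSS1, NDUFB9, SLC16A3, SNHG14, SOD2, TGM2, TYMS and ZEB1.

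Most expressed genes differed between the lines, usually by little. At an adjusted p under 0.05, 12976 genes were called, 79.7% of those tested, 6450 (39.6%) higher in MDA-MB-231 and 6526 (40.1%) higher in SUM159. In 12135 genes, 74.5%, the 4 values of one line lay wholly above the 4 of the other. Yet 63.1% of genes were within 2-fold, and 6975 of the called genes differed by less than 2-fold. The median log2 difference was -0.011 and the median absolute difference 0.68. Calls of at least 4-fold are therefore used below for size: 3157 genes passed that rule (19.4%), 1627 higher in MDA-MB-231 (9.99%) and 1530 higher in SUM159 (9.39%). At 5 CPM or more on average, MDA-MB-231 held 10960 genes and SUM159 10952, and 9961 were shared. TMM scaling centres the bulk of genes on no difference. The even split of calls and the median of -0.011 therefore cannot show a shift of all genes.

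**Figure D1:**
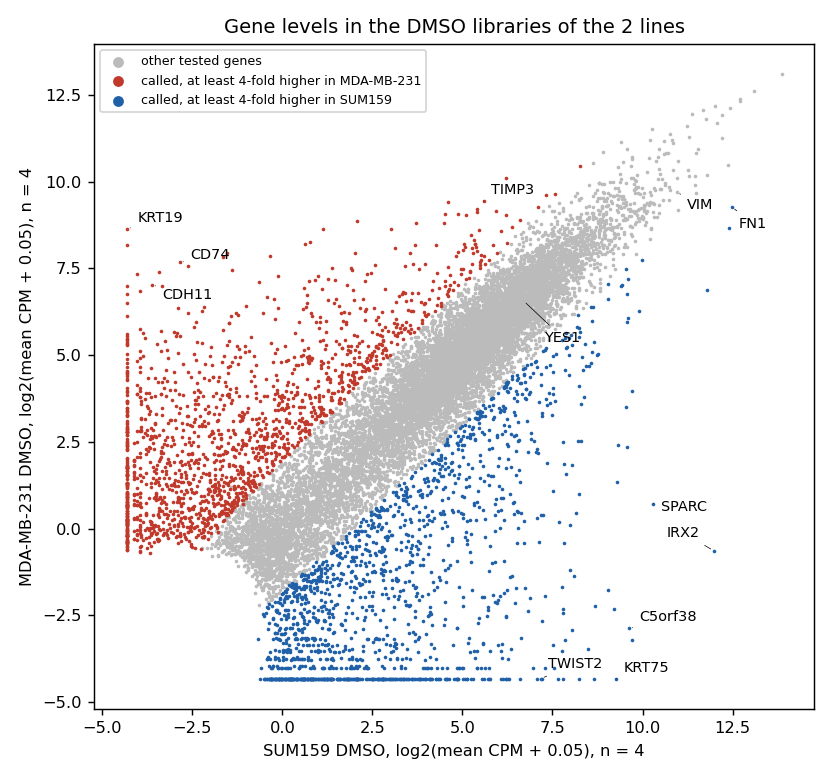
Each point is a tested gene, with its mean level in the 4 SUM159 libraries on the x axis and in the 4 MDA-MB-231 libraries on the y axis, both as log2(mean CPM + 0.05). Red and blue mark the 1627 and 1530 genes called at least 4-fold higher in MDA-MB-231 or SUM159; YES1 lies in the grey band between them, and points on the left and lower edges had no count in one line.

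The labels were first checked against the receptors that define the tumour class. The oestrogen receptor gene ESR1 gave 0.098, 0, 0.048 and 0.0918 CPM in the MDA-MB-231 libraries and 0.664, 0.454, 0.737 and 0.594 CPM in those of SUM159, and the progesterone receptor gene PGR had 1 count in MDA-MB-231 and 4 counts in SUM159 in all. Neither passed the filter. ERBB2, which encodes HER2, was present in both lines at 109 ± 2.45 CPM in MDA-MB-231 and 119 ± 7.05 CPM in SUM159 (log2 difference -0.13, SE 0.047, adjusted p = 0.0186). Its call was lost without MDA-MB-231 replicate 2 (adjusted p = 0.0755). Markers of other cell types were counted beside these. Of 16 leukocyte markers, 13 in MDA-MB-231 and 14 in SUM159 were under 0.5 CPM, and CD3D, CD3E, MS4A1 and TYROBP were at 0 in all 8 libraries. Of 12 fibroblast and pericyte markers, 5 and 3 were under 0.5 CPM, and FAP, a defining marker of activated fibroblasts, stayed under 0.05 CPM in both lines. Most members of that list were counted, however. Their summed level was 124.9 CPM in MDA-MB-231 and 992.2 CPM in SUM159. Among 10 tested members, 2 were called higher in MDA-MB-231 and 8 in SUM159, as described with the matrix genes below.

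YES1, the Src family tyrosine kinase on which the series centres, was at nearly the same level in the lines. Its libraries gave 94.7, 90.05, 99.1 and 96.9 CPM in the MDA-MB-231 libraries and 105, 102, 99 and 108 CPM in those of SUM159 (ENSG00000176105; log2 difference -0.12, SE 0.047, adjusted p = 0.0249). The ranges of the lines met between 99 and 99.1 CPM, the call was lost without MDA-MB-231 replicate 1 (adjusted p = 0.067) or replicate 2 (0.124), and a 1.09-fold difference separated the means. SRC, the founding member, was at 59.4 ± 3 against 80.7 ± 6.16 CPM (log2 difference -0.44, SE 0.059, adjusted p = 6.73e-07) and LYN at 30.4 ± 1.68 against 44.7 ± 1.68 CPM, both higher in SUM159, while FYN was at 42.5 ± 1.36 against 36.8 ± 1.98 CPM, higher in MDA-MB-231. LCK and FGR, kinases of blood cells, were at or under 0.036 CPM in both lines. BLK, a B-cell kinase, was at 0.152 ± 0.165 against 2.25 ± 0.473 CPM. Of the kinases, adaptors and brakes of the family, 8 of 18 tested members were called higher in MDA-MB-231 and 6 higher in SUM159, 0 and 1 of them at least 4-fold (5.56% against 19.4% of all genes), with a median log2 difference of 0.051 (0.015 to 0.06 with 1 library left out). Over all genes these shares were 39.6% and 40.1%, and 9.99% and 9.39% at 4-fold, with a median of -0.011. The counts of each gene list below stand against these shares, its medians are log2 differences over the tested members, and no list was tested. A member near 0 in one line passes the low-count filter only through the other line, which makes a 4-fold call likely. Lists were not matched to all genes for level. Among other members of the Src family list, the phosphatase PTPRE was higher in MDA-MB-231 (47.1 ± 0.972 against 27.9 ± 2.52 CPM). The tyrosine kinase PTK2B was higher in SUM159 (18.3 ± 1.16 against 41.9 ± 2.62 CPM).

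Some genes were counted in one line and almost absent from the other. With 5 CPM or more in one line and 0.1 CPM or less in the other, 180 genes were restricted to MDA-MB-231 (1.11%) and 217 to SUM159 (1.33%), 162 and 172 of them protein-coding. Of these, 64 had no count in any SUM159 library and 113 none in any MDA-MB-231 library. In bulk RNA, fewer cells with a transcript and less of it in each cell cannot be told apart. Where a line had no count, 3 counts over its 4 libraries set the floor, 0.0370 CPM in MDA-MB-231 and 0.0339 CPM in SUM159, and the ratio to that floor is a lower bound that covers counting error only.

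The keratins KRT19 and KRT75 were a mirrored pair. KRT19, an acidic keratin of simple epithelia (chromosome 17, chr17:41523617-41528308, hg38), gave 372, 418, 379.5 and 422 CPM in the MDA-MB-231 libraries and 0 in all 4 SUM159 libraries, at least 11750-fold higher in MDA-MB-231. KRT75, a basic keratin of hair follicle and nail (chromosome 12, chr12:52424070-52434525), gave 0 in all 4 MDA-MB-231 libraries and 567, 650.1, 665 and 579 CPM in those of SUM159, at least 16650-fold higher in SUM159. Each was thus high in all 4 libraries of one line with no count in the other. Other genes restricted to MDA-MB-231 included PXDN, a peroxidase that crosslinks basement membrane (291 ± 4.34 against 0 CPM), and the liver glycogen phosphorylase PYGL (169 ± 5.5 against 0.0437 ± 0.0555 CPM). So were the cysteine protease inhibitor CST1 (128 ± 3.17 against 0 CPM), the lipolysis inhibitor G0S2 (108 ± 4.62 against 0 CPM), the cornified envelope plakin EVPL (81.5 ± 2.89 against 0.0832 ± 0.0988 CPM) and the endosomal kinesin KIF13A (127 ± 3.6 against 0.0485 ± 0.0507 CPM).

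SUM159 held a set of surface peptidases and receptors that MDA-MB-231 lacked. ANPEP, aminopeptidase N or CD13, gave 0, 0, 0.048 and 0.184 CPM in the MDA-MB-231 libraries and 882, 811, 827 and 803 CPM in those of SUM159, and MME, neprilysin or CD10, was at 0.012 ± 0.024 against 188 ± 5.29 CPM. TMPRSS15, the intestinal protease enteropeptidase, was at 0 against 402 ± 7.07 CPM, at least 10880-fold higher in SUM159. All 3 peptidases were at or near 0 in every MDA-MB-231 library. The membrane mucin podoplanin, PDPN, was at 0.0398 ± 0.0523 against 361 ± 28.7 CPM, the cannabinoid receptor CNR1 at 0.0589 ± 0.07 against 229.7 ± 6.81 CPM and the receptor tyrosine kinase ROS1 at 0.0362 ± 0.0461 against 217 ± 15.9 CPM. NPTX2, a secreted neuronal pentraxin, was at 0 against 223 ± 17.2 CPM and the ubiquitin ligase TRIM58 at 0 against 299 ± 24.6 CPM, with no count in MDA-MB-231.

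Among the protein-coding genes that differed at least 4-fold and had counts in both lines, those most abundant in SUM159 included a transcription factor and a matrix gene. IRX2, an Iroquois homeobox factor, gave 0.294, 0.716, 0.624 and 0.735 CPM in the MDA-MB-231 libraries and 4039, 4327, 4005 and 3795 CPM in those of SUM159 (ENSG00000170561; log2 difference -12.72, SE 0.097, adjusted p = 9.81e-27). Fibronectin, FN1, gave 621, 582, 648 and 632 CPM in the MDA-MB-231 libraries and 6031, 5460, 5929 and 5396 CPM in those of SUM159. In MDA-MB-231 the transglutaminase TGM2 was at 1106 ± 9.52 against 73.3 ± 4.62 CPM, the metalloproteinase inhibitor TIMP3 at 696 ± 9.34 against 48.1 ± 0.98 CPM, the muscle filamin FLNC at 678 ± 34.5 against 24 ± 2.12 CPM and the serine protease PRSS23 at 555 ± 9.7 against 42.6 ± 1.67 CPM. FAM129B, a cytoplasmic protein of the Niban family, was at 1403 ± 33.5 against 309.8 ± 32.2 CPM. RPL9 was at 214 ± 4.92 against 1014 ± 52.8 CPM, but ribosomal protein genes have near-identical pseudogenes, so its count is uncertain.

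Most transcripts of epithelial junctions were higher in MDA-MB-231. Of the epithelial adhesion and polarity genes, 22 of 27 tested members were higher in MDA-MB-231 (17 at least 4-fold) and 4 in SUM159 (2 at least 4-fold), so that 70.4% passed the 4-fold rule against 19.4% of all genes, and the median log2 difference was 3.23. CDH1, E-cadherin, gave 4.41, 2.59, 2.4 and 2.98 CPM in the MDA-MB-231 libraries and 0 in all 4 SUM159 libraries, at least 91.4-fold higher in MDA-MB-231 though low there. The adhesion molecule EPCAM was at 11.9 ± 1.68 against 0.0162 ± 0.0324 CPM with 1 count in SUM159 in all, and CLDN4, a tight junction claudin, at 182 ± 5.44 against 2.55 ± 0.762 CPM (log2 difference 6.17, SE 0.098, adjusted p = 8.53e-21). CLDN7 was at 18.6 ± 1.38 against 0.0485 ± 0.0507 CPM and the vesicle protein MAL2 at 7 ± 0.592 against 0.0162 ± 0.0324 CPM. Levels were not uniform within the group: CLDN1 was higher in SUM159 (2.95 ± 0.575 against 30.1 ± 2.03 CPM), as were the desmoglein DSG2 (145 ± 6.51 against 228 ± 10.4 CPM) and plakoglobin, JUP (83 ± 4.82 against 101 ± 6.86 CPM). The splicing factor ESRP1 was at 0.0477 ± 0.0392 against 1.43 ± 0.521 CPM and GRHL2, which maintains epithelial identity, at 0.085 ± 0.0437 against 0 CPM. Both regulators of the epithelial state were thus low in both lines, with the mean of ESRP1 above that of MDA-MB-231 in SUM159.

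Keratins were called in both directions. Of the keratin genes, 13 members were tested, 7 called higher in MDA-MB-231 and 6 in SUM159, of which 3 and 4 passed the 4-fold rule (53.8% against 19.4% of all genes), with a median of 0.47. KRT18, a simple-epithelial keratin, was higher in MDA-MB-231 (381 ± 11.3 against 134 ± 7.66 CPM), as was KRT81 (91.4 ± 5.26 against 15.6 ± 2.97 CPM), and KRT5, the keratin of basal epithelium, was higher in SUM159 (0.078 ± 0.0904 against 12.4 ± 2.06 CPM), as was KRT34 (0.753 ± 0.0622 against 7.45 ± 0.544 CPM).

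Each line had its own cadherins. CDH11, the cadherin of osteoblasts and mesenchyme, gave 132, 124, 132 and 134 CPM in the MDA-MB-231 libraries and 0, 0.0649, 0 and 0.0594 CPM in those of SUM159. CDH4, R-cadherin, was also higher in MDA-MB-231 (103 ± 3.69 against 0.697 ± 0.332 CPM; log2 difference 7.32, SE 0.14, adjusted p = 2.45e-19). In SUM159, CDH2, N-cadherin, gave 1.76, 0.881, 1.49 and 0.964 CPM in the MDA-MB-231 libraries and 174, 136, 149 and 149 CPM in those of SUM159 (log2 difference -6.89, SE 0.13, adjusted p = 7.23e-17), and CDH13, T-cadherin, was at 0.151 ± 0.0998 against 222 ± 10.7 CPM. In each of the 4 the libraries of the lines were far apart, 2 cadherins in each direction.

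The mesenchymal transcription factors did not move together. TWIST2 gave 0 in all 4 MDA-MB-231 libraries and 147, 139.7, 140.2 and 152 CPM in those of SUM159, and its paralogue TWIST1 0 in all 4 MDA-MB-231 libraries and 11, 11.5, 14.4 and 11.7 CPM in those of SUM159: both were found in SUM159 alone, at least 3919-fold and at least 328-fold higher. ZEB2 was higher in SUM159 (11 ± 1.01 against 72 ± 1.69 CPM) and so was SNAI2 (31.1 ± 0.653 against 51.9 ± 5.2 CPM), whereas ZEB1 was at 56 ± 4.64 against 56.1 ± 2.06 CPM (adjusted p = 0.988). Vimentin, VIM, was abundant in both lines (835 ± 7.72 against 1970 ± 68.4 CPM; log2 difference -1.24, SE 0.038, adjusted p = 1.96e-17), and the neural intermediate filament nestin, NES, was higher in MDA-MB-231 (46 ± 1.41 against 0.497 ± 0.245 CPM). Over the list, 7 of 20 tested members were called higher in MDA-MB-231 and 12 higher in SUM159, 4 and 8 of them at least 4-fold (60% against 19.4% of all genes), with a median of -0.87. CD44 was at 620.3 ± 14.4 against 468 ± 36 CPM, higher in MDA-MB-231, and CD24 at 5.86 ± 0.449 against 95.4 ± 7.91 CPM, higher in SUM159; together they are a common surface pair for sorting mammary progenitor-like cells.

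**Figure D2:**
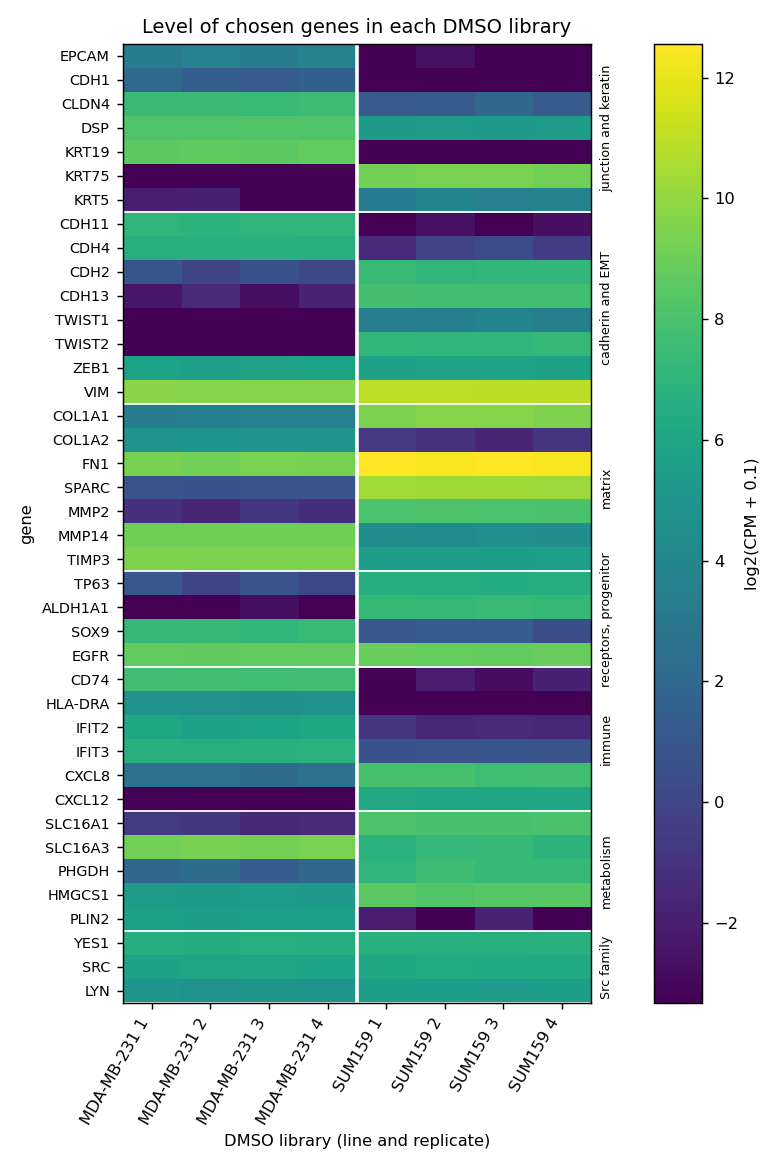
Rows are genes in 7 groups and columns the 8 DMSO libraries; colour gives log2(CPM + 0.1). Within a line the 4 columns look alike, KRT19 and CDH11 are dark in SUM159, KRT75, TWIST1 and TWIST2 are dark in MDA-MB-231, and ZEB1, YES1, SRC, LYN and EGFR are similar across all 8.

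Most luminal genes tested were higher in MDA-MB-231. Of the luminal and hormone receptor genes, 17 were tested. Of these, 12 were higher in MDA-MB-231 (9 at least 4-fold) and 5 in SUM159 (3 at least 4-fold). Thus 70.6% passed the 4-fold rule against 19.4% of all genes. The median log2 difference was 2.97 (2.2 to 3.1 with 1 library left out). SPDEF, an ETS factor of luminal and secretory cells, was at 27 ± 2.35 against 0.0967 ± 0.0674 CPM, and AGR2, a disulfide isomerase of secretory cells, at 5.62 ± 0.885 against 0 CPM. The unfolded protein response factor XBP1 and the carbonic anhydrase CA12 were higher in SUM159, at 60.6 ± 2.18 against 137 ± 12.3 CPM and 45.4 ± 4.32 against 248 ± 15.2 CPM.

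Basal and progenitor genes were called in both directions, and a larger share of them reached 4-fold than of all genes. SUM159 had TP63, the master factor of basal epithelium, at 92.7 ± 2.39 CPM against 1.36 ± 0.485 CPM in MDA-MB-231 (log2 difference -6.08, SE 0.11, adjusted p = 2.44e-21), and ALDH1A1, the retinaldehyde dehydrogenase used as a stem cell marker, at 0.012 ± 0.024 against 157 ± 4.67 CPM. MDA-MB-231 had SOX9, a mammary progenitor factor, at 156 ± 8.89 against 1.92 ± 0.467 CPM (log2 difference 6.33, SE 0.093, adjusted p = 5.31e-23), the laminin-332 chain LAMB3 at 525 ± 13.1 against 34 ± 3.64 CPM and the nerve growth factor receptor NGFR at 32.3 ± 1.46 against 5.29 ± 0.967 CPM. In all, 20 members were tested, 10 called higher in MDA-MB-231 and 8 in SUM159, of which 4 and 5 passed the 4-fold rule (45% against 19.4% of all genes), with a median of 0.19 (0.19 to 0.42 with 1 library left out).

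The lines differed in which matrix genes they expressed. Of the collagen chains, 8 of 28 tested members were called higher in MDA-MB-231 and 18 higher in SUM159, 5 and 10 of them at least 4-fold (53.6% against 19.4% of all genes), with a median of -0.77; of the matrix glycoproteins and crosslinkers, 18 of 55 tested members were higher in MDA-MB-231 (8 at least 4-fold) and 29 in SUM159 (16 at least 4-fold), so that 43.6% passed the 4-fold rule, with a median of -0.27 (-0.26 to -0.18 with 1 library left out). Type I collagen is assembled from COL1A1 and COL1A2 chains, and these went opposite ways. COL1A1 gave 9.99, 11.3, 11.9 and 12.2 CPM in the MDA-MB-231 libraries and 679, 802, 817 and 706 CPM in those of SUM159 (log2 difference -6.05, SE 0.077, adjusted p = 1.23e-21). COL1A2 gave 30.3, 32.2, 30.4 and 30.6 CPM in the MDA-MB-231 libraries and 0.52, 0.389, 0.23 and 0.416 CPM in those of SUM159 (log2 difference 6.23, SE 0.14, adjusted p = 8.73e-20). Per kb of exon, COL1A1 stood at 1.16 and 76.5 CPM per kb and COL1A2 at 2.77 and 0.0349 CPM per kb in MDA-MB-231 and SUM159, so that COL1A2 was the higher chain in MDA-MB-231 and COL1A1 in SUM159. COL3A1 was at 0.102 ± 0.0634 against 43.2 ± 2.63 CPM, COL5A3 at 0 against 67.5 ± 5.45 CPM and the basement membrane chain COL4A6 at 1.08 ± 0.34 against 205 ± 6.67 CPM, all higher in SUM159. COL13A1, a transmembrane collagen, was higher in MDA-MB-231 (182 ± 2.47 against 3.71 ± 0.5 CPM), as was COL9A2 (6.62 ± 1.08 against 0.348 ± 0.296 CPM).

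SPARC, a collagen-binding matricellular protein, gave 1.57, 1.49, 1.63 and 1.7 CPM in the MDA-MB-231 libraries and 1330, 1248, 1258 and 1213 CPM in those of SUM159 (log2 difference -9.62, SE 0.068, adjusted p = 2.09e-27). Tenascin C, TNC, was at 67.1 ± 1.6 against 775 ± 48.5 CPM, the transforming growth factor-induced protein TGFBI at 119 ± 1.68 against 3573 ± 128 CPM, fibulin 1, FBLN1, at 5.05 ± 0.244 against 765 ± 37.9 CPM and WISP1 at 0.026 ± 0.0301 against 68.3 ± 3.06 CPM. All of these were higher in SUM159 in every library. In MDA-MB-231 the lysyl oxidase LOXL4 was at 177 ± 3.35 against 0.33 ± 0.213 CPM, MXRA8 at 63.3 ± 3.59 against 2.25 ± 0.543 CPM and the microfibril protein MFAP2 at 10.8 ± 1.25 against 0.175 ± 0.174 CPM. The list of fibroblast and pericyte markers, which shares COL1A1, COL1A2 and COL3A1 with the collagens and DCN with the matrix genes, moved with these results. Its summed level was 123.4 to 125.6 CPM in MDA-MB-231 and 914.2 to 1063 CPM in SUM159, and 10 members were tested, 2 called higher in MDA-MB-231 and 8 in SUM159, of which 1 and 5 passed the 4-fold rule (60% against 19.4% of all genes), with a median of -3.69 (-3.7 to -1.3 with 1 library left out). DCN was at 0 against 8.66 ± 1.74 CPM and PDGFRA at 0.0275 ± 0.055 against 17.1 ± 1.22 CPM. The part of such markers in the matrix differences was not tested.

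Of the matrix proteases and inhibitors, 25 of 36 tested members were called higher in MDA-MB-231 and 11 higher in SUM159, 10 and 8 of them at least 4-fold (50% against 19.4% of all genes), with a median of 0.71. The membrane-anchored collagenase MMP14 was at 533 ± 5.09 against 22.8 ± 1.7 CPM and the secreted collagenase MMP1 at 6.5 ± 0.565 against 0.0234 ± 0.0308 CPM. MMP2, the gelatinase that MMP14 activates, went the other way, at 0.343, 0.22, 0.48 and 0.321 CPM in the MDA-MB-231 libraries and 272, 284, 272 and 261 CPM in those of SUM159 (log2 difference -9.60, SE 0.091, adjusted p = 9.09e-26). ADAM8 was higher in MDA-MB-231 (155 ± 9.77 against 0.874 ± 0.138 CPM; log2 difference 7.40, SE 0.093, adjusted p = 4.3e-24) and ADAM12 in SUM159 (4.9 ± 0.667 against 134 ± 6.9 CPM). Maspin, SERPINB5, was higher in SUM159 (0.159 ± 0.118 against 52 ± 4.37 CPM). Among integrins, 9 of 17 tested members were higher in MDA-MB-231 (1 at least 4-fold) and 6 in SUM159 (3 at least 4-fold), so that 23.5% passed the 4-fold rule, with a median of 0.16. The fibronectin receptor subunit ITGA5 was higher in SUM159 (127 ± 5.69 against 682 ± 26.9 CPM), as was the collagen receptor ITGA11 (0.141 ± 0.113 against 16.9 ± 1.08 CPM), and the leukocyte subunit ITGB2 in MDA-MB-231 (10.2 ± 1.2 against 0.194 ± 0.0735 CPM).

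EGFR itself was close between the lines and its ligands were not. EGFR gave 425, 415, 430.2 and 419.8 CPM in the MDA-MB-231 libraries and 461, 456, 429.5 and 458 CPM in those of SUM159 (log2 difference -0.094, SE 0.038, adjusted p = 0.0292). SUM159 replicate 3 lay within the MDA-MB-231 range, and the call was lost without MDA-MB-231 replicate 1, 2 or 4 (adjusted p = 0.0686, 0.107 and 0.089). TGFA, a high-affinity EGFR ligand, was higher in MDA-MB-231 (119 ± 8.09 against 7.09 ± 0.701 CPM; log2 difference 4.07, SE 0.073, adjusted p = 1.62e-21), and so was HBEGF (71.4 ± 1.27 against 15.6 ± 1.47 CPM). EREG, epiregulin, was higher in SUM159 (13.2 ± 1.3 against 160.4 ± 7.9 CPM; log2 difference -3.60, SE 0.065, adjusted p = 1.64e-21). The receptor ERBB3 was low in both (6.61 ± 0.822 against 0.818 ± 0.173 CPM). Of the family and its ligands, 12 members were tested, 7 called higher in MDA-MB-231 and 5 in SUM159, of which 5 and 2 passed the 4-fold rule (58.3% against 19.4% of all genes), with a median of 0.89. That median was -0.10 without the filter on low counts, and 3 were called higher in SUM159 without MDA-MB-231 replicate 2 or 4. Among the other receptor tyrosine kinases, 14 of 28 tested members were called higher in MDA-MB-231 and 13 higher in SUM159, 4 and 5 of them at least 4-fold (32.1%), with a median of 0.029 (0.0049 to 0.2 with 1 library left out). MST1R, the receptor RON, was higher in MDA-MB-231 (26.8 ± 2.22 against 0.174 ± 0.0882 CPM), as were MERTK (17.7 ± 1.07 against 1.05 ± 0.257 CPM) and EPHB3 (6.28 ± 0.7 against 0.192 ± 0.159 CPM), and the ephrin receptors EPHA7 (0.0413 ± 0.0826 against 18.4 ± 2.57 CPM) and EPHA3 (0 against 8.26 ± 1.03 CPM) were higher in SUM159.

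Most tested genes of ERK output were higher in MDA-MB-231. HRAS, a small GTPase upstream of ERK, was also higher there (103 ± 2.5 against 47.9 ± 6.02 CPM; log2 difference 1.12, SE 0.069, adjusted p = 1.27e-11). PIK3CA was at 39 ± 0.614 against 48.1 ± 2.5 CPM, and PIK3R1, the regulatory subunit that restrains it, at 17.2 ± 0.624 against 301 ± 11.7 CPM (log2 difference -4.13, SE 0.051, adjusted p = 3.39e-24). The ERK phosphatase DUSP6, a feedback target of ERK signalling, gave 156, 141, 144 and 147 CPM in the MDA-MB-231 libraries and 2.6, 3.05, 1.8 and 1.96 CPM in those of SUM159 (log2 difference 5.96, SE 0.09, adjusted p = 9.62e-23). DUSP4 was at 448 ± 16.1 against 22.5 ± 1.85 CPM and PHLDA1 at 568 ± 16.4 against 61.3 ± 7.33 CPM, also higher in MDA-MB-231. Of the ERK output genes, 16 of 24 tested members were higher in MDA-MB-231 (4 at least 4-fold) and 8 in SUM159 (1 at least 4-fold), so that 20.8% passed the 4-fold rule against 19.4% of all genes, with a median of 0.38. EGR1 (6.5 ± 0.845 against 16.6 ± 3.21 CPM), JUNB (26 ± 2.73 against 66.9 ± 1.22 CPM) and MYC were higher in SUM159. MYC, a growth-promoting transcription factor, gave 124, 135, 125 and 137 CPM in the MDA-MB-231 libraries and 717, 714, 664 and 650.0 CPM in those of SUM159 (log2 difference -2.40, SE 0.048, adjusted p = 9.65e-21), and PVT1, the noncoding gene beside it, was at 14.8 ± 0.763 against 183 ± 3.17 CPM.

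Among tumour suppressors, NF2, the Hippo pathway scaffold merlin, gave 13.2, 13, 12.8 and 14.4 CPM in the MDA-MB-231 libraries and 105, 110.1, 107 and 114 CPM in those of SUM159 (log2 difference -3.02, SE 0.059, adjusted p = 6.56e-21). CDKN2A and CDKN2B, cyclin-dependent kinase inhibitors of 9p21, had no count in MDA-MB-231 and 9 counts each over the 4 SUM159 libraries, and MTAP beside them, whose annotation overlaps other genes, was at 0 in all 8. KLHL9, nearer the tip of the arm (chr9:21329671-21335380), was at 0 against 11.4 ± 1.37 CPM, with no count in MDA-MB-231. MLLT3, nearer still (chr9:20341665-20622543), was at 18.9 ± 0.282 against 0.0412 ± 0.0561 CPM, the opposite direction. Of the 14 genes listed for 9p21, 7 were tested, 5 called higher in MDA-MB-231 and 1 in SUM159. Of these, 1 and 1 passed the 4-fold rule (28.6% against 19.4% of all genes), and the median was 0.29. Of the YAP and TAZ factors and targets, which the Hippo pathway restrains, 32 members were tested, 17 called higher in MDA-MB-231 and 12 in SUM159, of which 3 and 3 passed the 4-fold rule (18.8% against 19.4% of all genes), with a median of 0.17. ANKRD1, a target of YAP, was higher in MDA-MB-231 (270.2 ± 3.79 against 8.68 ± 1.28 CPM; log2 difference 4.93, SE 0.069, adjusted p = 3.08e-23), as were IGFBP3 (74.1 ± 2.51 against 3.58 ± 0.318 CPM) and TGFB2 (128 ± 6.26 against 22.7 ± 2.73 CPM), and GADD45B was higher in SUM159 (32.6 ± 3.87 against 193 ± 17.9 CPM).

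MHC class II molecules present antigens to helper T cells, normally on professional antigen-presenting cells, with CIITA as their transcriptional activator and CD74, the invariant chain, as their chaperone. All 7 tested class II genes were called at least 4-fold higher in MDA-MB-231, with a median log2 difference of 7.33, or 7.27 with the 2 genes that had no count in SUM159 at their bound. CD74 gave 207, 206, 200.2 and 204 CPM in the MDA-MB-231 libraries and 0, 0.13, 0.0461 and 0.178 CPM in those of SUM159 (log2 difference 11.44, SE 0.14, adjusted p = 2.03e-24). HLA-DRA, the alpha chain of HLA-DR, gave 28.2, 27.5, 24.7 and 28.8 CPM in the MDA-MB-231 libraries and 0 in all 4 SUM159 libraries, at least 806-fold higher. HLA-DMB was at 5.21 ± 0.591 against 0 CPM and CIITA at 27.6 ± 1.56 against 1.62 ± 0.582 CPM. The summed level of the list ran from 295.9 to 311.2 CPM in MDA-MB-231 and from 3.57 to 5.12 CPM in SUM159. Of the 10 listed genes, 2 were under 0.5 CPM in MDA-MB-231 and 8 in SUM159. Genes near 0 in SUM159 could pass the filter only through MDA-MB-231, so the 4-fold share partly follows from the filter. Of the 16 leukocyte markers, 3 passed the filter. The macrophage receptor gene CSF1R (8.68 ± 0.867 against 0.242 ± 0.19 CPM) and CD14 (1.84 ± 0.188 against 0.723 ± 0.13 CPM) were higher in MDA-MB-231, as the class II genes were, and LAPTM5, a lysosomal protein of blood cells, was higher in SUM159 (60.8 ± 1.91 against 98.1 ± 3.53 CPM). The summed level of the markers ran from 68.8 to 73.5 CPM in MDA-MB-231 and from 94.5 to 102.4 CPM in SUM159, most of it LAPTM5. PTPRC, the common leukocyte antigen, was at 0.267 ± 0.0787 against 0.209 ± 0.151 CPM, and TYROBP at 0. Their part in the class II difference was not tested.

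Class I presentation was present in both lines. B2M, the class I light chain, was higher in SUM159 (566 ± 7.43 against 1046 ± 101 CPM). The checkpoint ligand CD274, or PD-L1, was at 25.6 ± 1.51 against 24.4 ± 0.455 CPM (adjusted p = 0.368), while PDCD1LG2, or PD-L2, and CD276 were higher in SUM159 (4.04 ± 0.337 against 11.5 ± 1.27 CPM and 71.8 ± 2.69 against 211 ± 8.03 CPM). The stress ligands MICB (70.3 ± 1.5 against 26.5 ± 2.03 CPM) and ULBP2 (14 ± 1.37 against 4.65 ± 0.374 CPM) were higher in MDA-MB-231. Of this list, 10 of 22 tested members were called higher in MDA-MB-231 and 7 higher in SUM159, 0 and 1 of them at least 4-fold (4.55% against 19.4% of all genes), with a median of 0.14 (0.074 to 0.17 with 1 library left out).

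Interferon-stimulated genes are switched on by a complex that holds STAT2 and IRF9 and binds an element with repeated GAAA half-sites, and many block viral RNA. A subset of them was high in MDA-MB-231. Of the list, 27 of 45 tested members were higher in MDA-MB-231 (15 at least 4-fold) and 15 in SUM159 (1 at least 4-fold), so that 35.6% passed the 4-fold rule against 19.4% of all genes, with a median log2 difference of 0.62; summed levels ran from 2168 to 2249 CPM in MDA-MB-231 and from 1692 to 1766 CPM in SUM159. Promoters of 5 members are printed because they hold the element and because the genes differ in direction: IFIT1, IFIT3 and HERC5 were higher in MDA-MB-231, IFITM1 and BST2 in SUM159. The sequences are RefSeq's for GRCh38.p14, 250 bases before to 50 after the gene start, 5′ to 3′ on the gene's strand. Capitals mark matches to GAAANNGAAA on either strand, where overlapping matches run together.
IFIT1 (chr10:89392373-89392672, plus strand): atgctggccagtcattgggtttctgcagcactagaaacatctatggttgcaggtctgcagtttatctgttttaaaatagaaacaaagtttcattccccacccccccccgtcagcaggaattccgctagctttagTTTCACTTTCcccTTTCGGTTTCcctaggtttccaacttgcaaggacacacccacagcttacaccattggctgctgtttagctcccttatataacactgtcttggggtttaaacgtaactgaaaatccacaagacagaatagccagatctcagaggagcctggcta
IFIT3 (chr10:89327747-89328046, plus strand): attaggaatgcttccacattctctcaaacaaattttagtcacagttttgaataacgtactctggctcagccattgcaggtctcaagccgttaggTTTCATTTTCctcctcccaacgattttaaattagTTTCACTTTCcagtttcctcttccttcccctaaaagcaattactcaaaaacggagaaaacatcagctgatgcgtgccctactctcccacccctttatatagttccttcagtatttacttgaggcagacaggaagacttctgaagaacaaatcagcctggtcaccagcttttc
HERC5 (chr4:88456869-88457168, plus strand): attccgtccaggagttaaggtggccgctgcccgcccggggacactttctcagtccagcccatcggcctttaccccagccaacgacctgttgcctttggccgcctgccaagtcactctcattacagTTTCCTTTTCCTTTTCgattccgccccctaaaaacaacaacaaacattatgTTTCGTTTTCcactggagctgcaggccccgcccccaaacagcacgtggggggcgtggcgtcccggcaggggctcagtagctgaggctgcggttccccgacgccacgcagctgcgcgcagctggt
IFITM1 (chr11:313790-314089, plus strand): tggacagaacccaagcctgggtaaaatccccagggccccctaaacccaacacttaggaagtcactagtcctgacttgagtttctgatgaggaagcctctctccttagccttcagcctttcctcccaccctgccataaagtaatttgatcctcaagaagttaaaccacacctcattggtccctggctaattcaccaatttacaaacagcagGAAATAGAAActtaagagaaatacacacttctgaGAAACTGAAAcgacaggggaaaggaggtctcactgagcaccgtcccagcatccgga
BST2 (chr19:17405581-17405880, minus strand): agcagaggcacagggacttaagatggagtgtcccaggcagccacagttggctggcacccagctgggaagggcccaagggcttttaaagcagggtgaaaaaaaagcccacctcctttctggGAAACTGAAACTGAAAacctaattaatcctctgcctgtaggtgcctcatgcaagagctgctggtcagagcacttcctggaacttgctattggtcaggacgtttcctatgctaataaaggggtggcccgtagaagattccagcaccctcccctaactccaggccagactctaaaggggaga
HERC5 holds 3 matches and the other 4 promoters 2 each. Of 10804 promoters of tested protein-coding genes in the table, 318 (2.94%) hold at least 1. A match describes the letters only; matches stand in promoters of genes higher in either line.

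IFIT1, an RNA-binding antiviral protein, gave 73.2, 64.1, 66.4 and 69.5 CPM in the MDA-MB-231 libraries and 1.65, 2.66, 1.89 and 1.84 CPM in those of SUM159 (log2 difference 5.14, SE 0.10, adjusted p = 6.71e-21). IFIT3, its partner, gave 106, 105, 106 and 111 CPM in the MDA-MB-231 libraries and 1.5, 1.56, 1.66 and 1.54 CPM in those of SUM159 (log2 difference 6.09, SE 0.078, adjusted p = 6.08e-24), and IFIT2 was at 60.9 ± 5.45 against 0.309 ± 0.103 CPM. The ISG15 ligase HERC5 gave 37.5, 35.5, 39.2 and 40.7 CPM in the MDA-MB-231 libraries and 0.433, 0.389, 0.277 and 0.357 CPM in those of SUM159 (log2 difference 6.66, SE 0.13, adjusted p = 8.28e-21), and ISG15, the ubiquitin-like modifier it attaches, was at 77.6 ± 3.35 against 8.16 ± 1.33 CPM. All of these were higher in every MDA-MB-231 library than in any of SUM159. The membrane proteins that block viral entry and release were ordered the other way: IFITM1 gave 14.3, 13.1, 13.9 and 14.4 CPM in the MDA-MB-231 libraries and 51.8, 43.6, 41.9 and 51.3 CPM in those of SUM159 (log2 difference -1.76, SE 0.08, adjusted p = 1.42e-14), IFITM3 was at 191 ± 6.9 against 266 ± 16.4 CPM and BST2, or tetherin, at 165 ± 5.45 against 217 ± 7.86 CPM. IFI44L and IFI6 were also higher in SUM159, at 1.04 ± 0.147 against 5.14 ± 0.363 CPM and 9.81 ± 1.55 against 20.8 ± 1.83 CPM. The transcription factor IRF9 was at 0.91 ± 0.269 against 0.782 ± 0.144 CPM (adjusted p = 0.608).

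**Figure D3:**
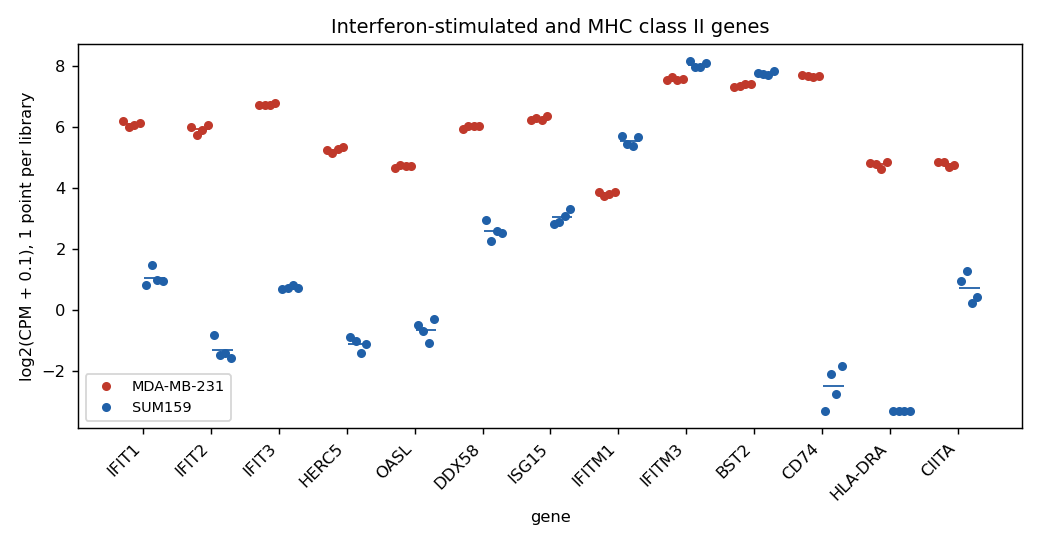
Each point is 1 library, at log2(CPM + 0.1) on the y axis, with red for MDA-MB-231, blue for SUM159 and a bar at the mean of the plotted values. IFIT1, IFIT2, IFIT3, HERC5, OASL, DDX58, ISG15, CD74, HLA-DRA and CIITA lie higher in MDA-MB-231 and IFITM1, IFITM3 and BST2 in SUM159; HLA-DRA has no count in SUM159.

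Most chemokines and interleukins that were tested differed at least 4-fold, about as many in each direction. Of the list, 30 members were tested, 14 called higher in MDA-MB-231 and 12 in SUM159, of which 11 and 10 passed the 4-fold rule (70% against 19.4% of all genes), with a median of -0.038 (-0.14 to 0.19 with 1 library left out). The neutrophil chemokine CXCL8 gave 5.88, 5.45, 4.75 and 6.29 CPM in the MDA-MB-231 libraries and 248, 242, 202 and 202 CPM in those of SUM159 (log2 difference -5.32, SE 0.097, adjusted p = 4.89e-17), and IL1A, an alarmin cytokine, was at 0.58 ± 0.247 against 37 ± 6.96 CPM, both higher in SUM159. CXCL12, the stromal ligand of CXCR4, gave 0 in all 4 MDA-MB-231 libraries and 76, 64.7, 68.8 and 71.9 CPM in those of SUM159, while its receptor CXCR4 was at 23.7 ± 1.49 against 0.0559 ± 0.0935 CPM; the ligand was thus found in SUM159 and the receptor in MDA-MB-231. The death ligand TNFSF10, or TRAIL, was at 40.4 ± 1.9 against 0 CPM, and the membrane chemokine CX3CL1 at 15.1 ± 1.62 against 0.0264 ± 0.0309 CPM, both higher in MDA-MB-231. Of the cytokine receptors, 13 of 37 tested members were called higher in MDA-MB-231 and 20 higher in SUM159, 6 and 6 of them at least 4-fold (32.4%), with a median of -0.31. IL6R was higher in SUM159 (0.911 ± 0.266 against 59.5 ± 3.11 CPM) and the GM-CSF receptor CSF2RA in MDA-MB-231 (36.2 ± 1.48 against 0.846 ± 0.142 CPM). Of the NF-kB factors and targets, 7 of 20 tested members were higher in MDA-MB-231 (1 at least 4-fold) and 10 in SUM159 (2 at least 4-fold), so that 15% passed the 4-fold rule, with a median of -0.16. The feedback inhibitors TNFAIP3 (7.91 ± 1.03 against 71.2 ± 3.6 CPM) and NFKBIA (64.7 ± 3.96 against 165 ± 3.93 CPM) and the mitochondrial dismutase SOD2 (61.6 ± 1.85 against 758 ± 50.3 CPM) were higher in SUM159.

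Of the TGF-beta and BMP genes, 30 members were tested, 13 called higher in MDA-MB-231 and 15 in SUM159, of which 7 and 6 passed the 4-fold rule (43.3% against 19.4% of all genes), with a median of -0.20. BMP4, a ligand of the bone morphogenetic protein branch, gave 296, 303, 292 and 294 CPM in the MDA-MB-231 libraries and 1.65, 1.56, 1.57 and 1.19 CPM in those of SUM159 (log2 difference 7.60, SE 0.07, adjusted p = 6.49e-26). Follistatin, FST, which binds activins, was at 53.6 ± 4.51 against 0.0144 ± 0.0289 CPM, with 1 count in SUM159, and the activin subunit INHBB at 17.8 ± 1.26 against 0.0115 ± 0.023 CPM. The co-receptor endoglin, ENG, was higher in SUM159 (1.94 ± 0.335 against 79.4 ± 2.59 CPM), as were SMAD9 (3.33 ± 0.369 against 38.2 ± 3.72 CPM) and ID3 (31.1 ± 1.04 against 319.5 ± 26.8 CPM), both intracellular members of the BMP branch. The ligand was thus higher in one line and these downstream members in the other.

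Of the WNT and Notch genes, 18 of 34 tested members were called higher in MDA-MB-231 and 13 higher in SUM159, 8 and 10 of them at least 4-fold (52.9% against 19.4% of all genes), with a median of 0.29. WNT5A, a non-canonical ligand, gave 0.196, 0.11, 0.096 and 0.0918 CPM in the MDA-MB-231 libraries and 53.3, 51, 50.4 and 51.5 CPM in those of SUM159 (log2 difference -8.64, SE 0.14, adjusted p = 2.91e-22), and the canonical ligand WNT7B was at 48.6 ± 2.51 against 6.13 ± 0.29 CPM, higher in MDA-MB-231. Secreted members of the DKK family went opposite ways. DKK1, a WNT inhibitor, was at 389 ± 3 against 43.8 ± 3.05 CPM (log2 difference 3.15, SE 0.049, adjusted p = 1.35e-22) and DKK3 at 2.48 ± 0.379 against 627 ± 20.2 CPM (log2 difference -7.97, SE 0.07, adjusted p = 3.73e-26). NKD2, an intracellular WNT inhibitor, was at 0 against 17.6 ± 2.53 CPM. The receptor NOTCH3 was higher in SUM159 (2.06 ± 0.603 against 184 ± 17.1 CPM; log2 difference -6.47, SE 0.12, adjusted p = 8.85e-17).

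Most tested HOX genes, homeobox factors that record the position of a cell along the body axis, were higher in SUM159. Of 39 HOX genes 21 were tested: 6 of 21 tested members were higher in MDA-MB-231 (5 at least 4-fold) and 15 in SUM159 (14 at least 4-fold), so that 90.5% passed the 4-fold rule against 19.4% of all genes. Their median log2 difference was -6.20, or -4.93 with the 10 genes that had no count in one line at their bound. Of the 39 genes, 32 were under 0.5 CPM in MDA-MB-231 and 21 in SUM159. Genes near 0 in one line could pass the filter only through the other, so the 4-fold share partly follows from the filter. HOXC10 gave 0, 0, 0 and 0.0459 CPM in the MDA-MB-231 libraries and 51.3, 43.6, 39.6 and 48.6 CPM in those of SUM159, and HOXC13 was at 0.0115 ± 0.023 against 31.6 ± 1.8 CPM. HOXA10 was at 0 against 7.86 ± 0.353 CPM. HOXB9 was among the 6 tested members higher in MDA-MB-231. It gave 11.2, 12, 10.3 and 10.7 CPM in the MDA-MB-231 libraries and 0.144, 0.0649, 0.0921 and 0.0594 CPM in those of SUM159. Summed levels of the list ran from 22.9 to 25.4 CPM in MDA-MB-231 and from 159.3 to 189.8 CPM in SUM159. HOX genes overlap each other and antisense RNAs, so single members are less certain than the clusters.

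Cancer-testis antigens, genes normally read in germ cells and often derepressed in tumours, were likewise higher in SUM159: 20 members were tested, 1 called higher in MDA-MB-231 and 17 in SUM159, of which 1 and 16 passed the 4-fold rule (85% against 19.4% of all genes), with a median of -5.88, or -5.63 with 2 genes at their bound. MAGEA12 was at 0.147 ± 0.0666 against 52.3 ± 1.69 CPM (log2 difference -8.41, SE 0.14, adjusted p = 6.69e-22). XAGE2 was at 0.012 ± 0.024 against 29.9 ± 3 CPM and CSAG1 at 0.0887 ± 0.0678 against 28.8 ± 2.51 CPM. CT83 was the exception, at 3.78 ± 0.527 against 0 CPM. Of the 43 listed genes, 37 were under 0.5 CPM in MDA-MB-231 and 24 in SUM159, so here too the 4-fold share partly follows from the filter. Without the filter 36 members were tested, of which 1 and 21 passed the 4-fold rule. MAGEA and CSAG genes have near-identical copies, and reads shared between copies may be split or lost. Of the imprinted genes, which are read from one parental copy, 5 of 19 tested members were called higher in MDA-MB-231 and 11 higher in SUM159, 0 and 6 of them at least 4-fold (31.6%), with a median of -0.60 (-0.62 to -0.39 with 1 library left out). PLAGL1, an imprinted zinc finger factor, was at 0.0518 ± 0.0451 against 35.8 ± 3 CPM and the host transcript SNHG14 at 0.179 ± 0.111 against 60.2 ± 3.11 CPM, both higher in SUM159. CDKN1C, an imprinted kinase inhibitor, was higher in MDA-MB-231 (17.3 ± 2.43 against 8.3 ± 0.806 CPM).

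Among noncoding RNAs, 42.7% of 745 tested lincRNAs were called at least 4-fold, 136 higher in MDA-MB-231 and 182 in SUM159. The share was 17.9% for protein-coding genes, 20.8% for antisense RNAs and 13.2% for processed pseudogenes. These shares were not matched for level and not tested against each other. UCA1, a lincRNA first described in bladder cancer, gave 34.5, 34.1, 35 and 34.6 CPM in the MDA-MB-231 libraries and 0.0578, 0, 0 and 0 CPM in those of SUM159. In SUM159, MIR205HG, host of a basal-epithelial microRNA, was at 0 against 13.2 ± 2 CPM, and LINC02154 at 0.245 ± 0.102 against 74.7 ± 2.62 CPM. MANCR was higher in MDA-MB-231 (36.3 ± 1.77 against 0.385 ± 0.222 CPM). Of the lincRNAs with known names, 6 of 21 tested members were higher in MDA-MB-231 (3 at least 4-fold) and 12 in SUM159 (7 at least 4-fold), so that 47.6% passed the 4-fold rule against 19.4% of all genes, with a median of -0.93.

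More cell division genes were higher in MDA-MB-231 than in SUM159, by little. In each of the lists of mitosis and replication genes 88.6% were called, against 79.7% of all genes. Of the G2/M and mitosis genes, 44 members were tested, 33 called higher in MDA-MB-231 and 6 in SUM159, of which 0 and 0 passed the 4-fold rule (0% against 19.4% of all genes), with a median log2 difference of 0.49. AURKA, a spindle pole kinase, gave 222, 220.5, 223 and 209.6 CPM in the MDA-MB-231 libraries and 88.3, 77, 77.3 and 76.9 CPM in those of SUM159 (log2 difference 1.45, SE 0.049, adjusted p = 9.63e-17). UBE2C, the ubiquitin-conjugating enzyme of the anaphase complex, was at 179 ± 2.44 against 70.4 ± 2.94 CPM and the chromokinesin KIF4A at 143 ± 3.64 against 56.9 ± 2.5 CPM. HMMR, a microtubule-binding hyaluronan receptor, was at 14 ± 0.883 against 43.5 ± 3.72 CPM (log2 difference -1.63, SE 0.076, adjusted p = 2.63e-14) and MYBL2, a late cell cycle factor, at 98 ± 4.22 against 163 ± 2.31 CPM, both higher in SUM159. Of the replication and G1/S genes, 26 of 44 tested members were called higher in MDA-MB-231 and 13 higher in SUM159, 1 and 1 of them at least 4-fold (4.55%), with a median of 0.35. E2F8, a repressor of the E2F family, was higher in MDA-MB-231 (38.8 ± 2.96 against 4.18 ± 0.67 CPM; log2 difference 3.20, SE 0.1, adjusted p = 2.18e-17) and cyclin D2, CCND2, in SUM159 (0.393 ± 0.053 against 8.83 ± 1 CPM).

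Few microtubule genes reached 4-fold. Of the tubulins and microtubule regulators, 13 of 25 tested members were higher in MDA-MB-231 (0 at least 4-fold) and 10 in SUM159 (2 at least 4-fold), so that 8% passed the 4-fold rule against 19.4% of all genes, with a median of 0.27. That median was -0.024 without the filter on low counts. TUBB3, the neuronal beta-tubulin often linked to taxane resistance, was low in both lines (0.767 ± 0.226 against 1.45 ± 0.476 CPM, called higher in SUM159 with overlapping libraries). MAP2 (4.57 ± 0.694 against 114 ± 8.51 CPM; log2 difference -4.63, SE 0.087, adjusted p = 3.14e-21) and MAPT, the tau protein (2.61 ± 0.416 against 18 ± 1.22 CPM), were higher in SUM159, and the stathmin STMN3 in MDA-MB-231 (73.6 ± 4.8 against 24.6 ± 3.89 CPM). The efflux pump ABCB1, which exports taxanes, had no count in MDA-MB-231 and gave 3.6 ± 0.526 CPM in SUM159. The organic anion pumps ABCC2 (1.38 ± 0.19 against 62.9 ± 2.55 CPM; log2 difference -5.51, SE 0.095, adjusted p = 7.26e-22) and ABCC3 (96.1 ± 3.6 against 242 ± 11.8 CPM) were higher in SUM159 and the cholesterol exporter ABCA1 in MDA-MB-231 (80.7 ± 4.28 against 5 ± 0.344 CPM; log2 difference 4.02, SE 0.074, adjusted p = 2.44e-21). Of the apoptosis regulators, 26 members were tested, 10 called higher in MDA-MB-231 and 13 in SUM159, of which 3 and 2 passed the 4-fold rule (19.2%), with a median of -0.19. The BH3-only genes PMAIP1, or NOXA (98.3 ± 4.97 against 4.68 ± 0.901 CPM), and BCL2L11, or BIM (29.2 ± 2.09 against 5.97 ± 0.299 CPM), were higher in MDA-MB-231, and the inflammatory caspase CASP1 in SUM159 (0.471 ± 0.194 against 71.5 ± 1.1 CPM).

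Transcripts of the lactate transporters differed. SLC16A1, or MCT1, gave 0.539, 0.495, 0.24 and 0.276 CPM in the MDA-MB-231 libraries and 277, 243, 249.6 and 251 CPM in those of SUM159 (log2 difference -9.36, SE 0.10, adjusted p = 7.57e-25). SLC16A3, or MCT4, the lactate exporter of glycolytic cells, gave 573, 643, 609.5 and 662 CPM in the MDA-MB-231 libraries and 113, 154, 157 and 124 CPM in those of SUM159 (log2 difference 2.19, SE 0.12, adjusted p = 3.42e-07). MCT1 was thus nearly absent from MDA-MB-231, and MCT4 was counted in both. Over the glycolysis and hypoxia genes, 19 of 36 tested members were called higher in MDA-MB-231 and 15 higher in SUM159, 3 and 2 of them at least 4-fold (13.9% against 19.4% of all genes), with a median of 0.21.

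Most transcripts of serine and one-carbon metabolism were higher in SUM159. PHGDH, the first enzyme of serine synthesis, gave 3.67, 4.79, 2.54 and 3.72 CPM in the MDA-MB-231 libraries and 140.1, 192, 158 and 159.7 CPM in those of SUM159 (log2 difference -5.47, SE 0.15, adjusted p = 1.4e-10). CBS, which passes homocysteine into cysteine synthesis, gave 0 in all 4 MDA-MB-231 libraries and 11, 38.9, 32.9 and 8.62 CPM in those of SUM159 (adjusted p = 0.0161); SUM159 replicates 2 and 3 were well above replicates 1 and 4. The asparagine synthetase ASNS was at 1.02 ± 0.255 against 10.3 ± 3.03 CPM. Of the serine, one-carbon and asparagine genes, 5 of 28 tested members were higher in MDA-MB-231 (0 at least 4-fold) and 22 in SUM159 (6 at least 4-fold), so that 21.4% passed the 4-fold rule against 19.4% of all genes, with a median of -0.76. The exceptions included the thymidylate synthase TYMS (76.8 ± 1.35 against 36.2 ± 2.23 CPM). RPMI and Ham's F12 are different recipes of amino acids, salts and vitamins, so medium and line cannot be told apart for any of these genes.

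Most cholesterol synthesis transcripts were also higher in SUM159. Of these, 25 members were tested, 4 called higher in MDA-MB-231 and 17 in SUM159, of which 1 and 2 passed the 4-fold rule (12% against 19.4% of all genes), with a median of -0.46. HMGCS1, the synthase before HMG-CoA reductase, gave 42, 37.5, 41.1 and 37.7 CPM in the MDA-MB-231 libraries and 370.5, 302, 343 and 348 CPM in those of SUM159 (log2 difference -3.11, SE 0.061, adjusted p = 2.71e-20), and squalene epoxidase, SQLE, was at 23 ± 0.41 against 182 ± 6.24 CPM. Of the fatty acid genes, 12 of 33 tested members were called higher in MDA-MB-231 and 14 higher in SUM159, 3 and 1 of them at least 4-fold (12.1%), with a median of -0.026 (-0.065 to 0.0062 with 1 library left out). The lipid droplet coat PLIN2 gave 51.4, 48.3, 49.9 and 49.9 CPM in the MDA-MB-231 libraries and 0.144, 0, 0.184 and 0 CPM in those of SUM159 (log2 difference 8.86, SE 0.18, adjusted p = 1.23e-20), and the desaturase FADS2 was at 199 ± 3.92 against 12.3 ± 1.09 CPM, both higher in MDA-MB-231. The synthase FASN was higher in SUM159 (549 ± 41.9 against 1409 ± 146 CPM; log2 difference -1.36, SE 0.073, adjusted p = 1.1e-09).

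Among antioxidant enzymes, 15 of 35 tested members were higher in MDA-MB-231 (4 at least 4-fold) and 17 in SUM159 (3 at least 4-fold), so that 20% passed the 4-fold rule against 19.4% of all genes, with a median of -0.17 (-0.21 to -0.085 with 1 library left out). The glutathione transferase GSTM3 (74.6 ± 4.15 against 0.113 ± 0.0991 CPM; log2 difference 9.44, SE 0.15, adjusted p = 2.45e-22) and the secreted peroxidase GPX3 (143 ± 5.13 against 1.82 ± 0.486 CPM) were higher in MDA-MB-231, and the cystine transporter SLC7A11 (37.2 ± 2.14 against 233 ± 29.5 CPM) and MGST1 (55.1 ± 1.15 against 302 ± 29.5 CPM) in SUM159. Of the metallothioneins and zinc transporters, 9 members were tested, 3 called higher in MDA-MB-231 and 5 in SUM159, of which 2 and 1 passed the 4-fold rule (33.3%), with a median of -0.27. The metallothioneins MT2A (408 ± 33.8 against 1216 ± 335 CPM) and MT1X (4.86 ± 0.416 against 52.8 ± 11.2 CPM) were higher in SUM159, and MT1F (3.85 ± 0.7 against 0.092 ± 0.0289 CPM) and MT1A (2.34 ± 0.358 against 0 CPM) in MDA-MB-231. Of the S100 proteins and annexins, 13 of 21 tested members were called higher in MDA-MB-231 and 6 higher in SUM159, 4 and 0 of them at least 4-fold (19%), with a median of 0.43. S100A4, a calcium-binding protein tied to motility, was higher in MDA-MB-231 (478 ± 7.21 against 96.6 ± 6.4 CPM) and S100A2 in SUM159 (99.4 ± 1.21 against 256 ± 24.2 CPM). Of 13 mitochondrially encoded mRNAs, 4 were called (30.8%, against 79.7% of all genes). MT-ND3 (863 ± 89 against 423 ± 33.8 CPM) and MT-ND6 (694 ± 73.1 against 424 ± 109 CPM) were higher in MDA-MB-231. MT-CO1 (6344 ± 873 against 8681 ± 1758 CPM; adjusted p = 0.0446) and MT-CO3 (3320 ± 291 against 4285 ± 746 CPM; adjusted p = 0.0395) were called higher in SUM159, with overlapping libraries. These counts turned on single libraries: 6 were called higher in MDA-MB-231 without SUM159 replicate 1, and 0 higher in SUM159 without that library, without SUM159 replicate 4 or without MDA-MB-231 replicate 2, 3 or 4.

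**Figure D4:**
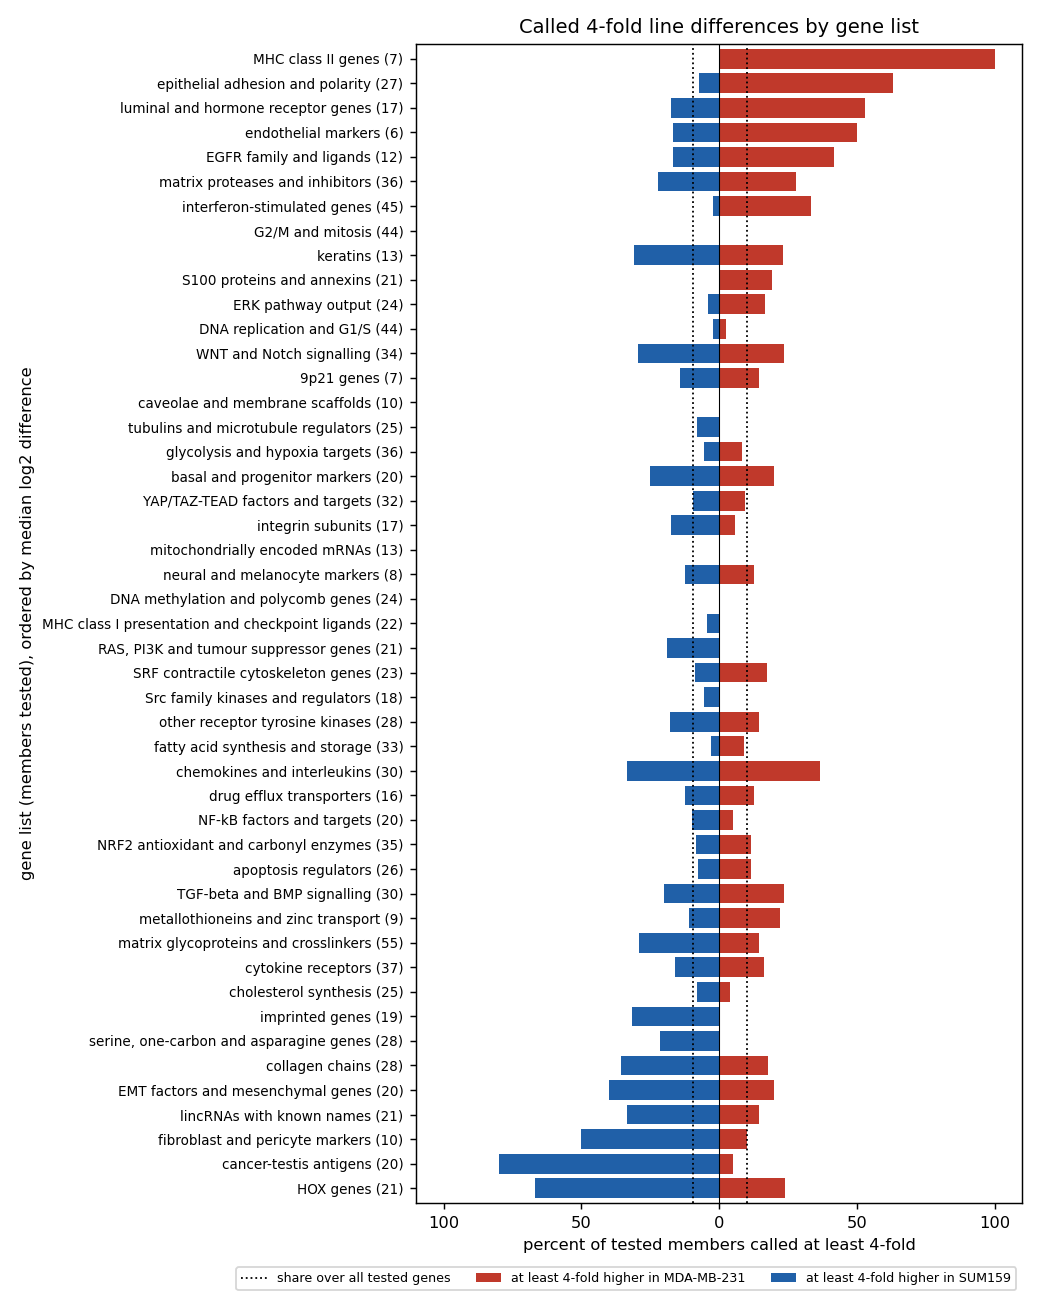
Bars give the percent of tested members called at least 4-fold in each gene list with 5 or more tested members, to the right for MDA-MB-231 and to the left for SUM159, with lists ordered by median log2 difference and the dotted lines at 9.99% and 9.39%, the shares over all tested genes. MHC class II and epithelial adhesion genes are at the MDA-MB-231 end, HOX and cancer-testis genes at the SUM159 end, and mitosis, caveolae, DNA methylation and mitochondrial genes have no bar.

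Many genes stand in 2 or more lists. Of the smaller groups, caveolae genes had 10 tested members and DNA methylation and polycomb genes 24, with none called at 4-fold, against 19.4% of all genes. EZH2, the polycomb methyltransferase, was higher in MDA-MB-231 (102 ± 3.22 against 48.3 ± 2.09 CPM) and the demethylating enzyme TET1 in SUM159 (3.76 ± 0.235 against 8.95 ± 0.536 CPM). Of 12 endothelial markers 6 were tested, 4 called higher in MDA-MB-231 and 2 in SUM159. Of these, 3 and 1 passed the 4-fold rule (66.7% against 19.4% of all genes). ESAM (62.6 ± 1.66 against 0.14 ± 0.0777 CPM) and ROBO4 (22.5 ± 0.86 against 0.301 ± 0.179 CPM) were higher in MDA-MB-231. The defining marker EMCN was at 0 in all 8 libraries and CDH5 at 0.023 ± 0.0459 against 0 CPM. The ETS factor ERG, also of that list, was at 0 against 19 ± 0.818 CPM, in SUM159 alone.

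By chromosome, the direction of the calls varied. On chromosome 22, 64.9% of 396 tested genes were called higher in SUM159 and 17.7% higher in MDA-MB-231, with a median log2 difference of -0.49. Chromosomes 15, 16 and 13 had medians of -0.42, -0.39 and -0.37. On chromosome 20, 58.5% of 436 genes were called higher in MDA-MB-231 and 25.2% in SUM159, with a median of 0.37, and chromosomes 6 and 11 each had a median of 0.29. The median over all genes was -0.011. Neighbouring genes are not independent, and no test was made.

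Among 11251 protein-coding genes with a mean of at least 5 CPM in either line, runs of 5 or more neighbours that all differed at least 2-fold the same way were sought. There were 11 runs of 66 genes higher in MDA-MB-231 and 8 runs of 51 genes higher in SUM159. The longest in MDA-MB-231 held 9 genes on chromosome 6 (chr6:41905354-42746096, hg38), from MED20 to TBCC, with cyclin D3, CCND3, at 233 ± 7.49 against 80.8 ± 6.37 CPM (log2 difference 1.53, SE 0.051, adjusted p = 7.32e-17), BYSL at 101 ± 1.56 against 46.2 ± 2.1 CPM and TAF8 at 113 ± 4.17 against 35.8 ± 2.49 CPM. The longest in SUM159 also held 9 genes, on chromosome 8 (chr8:124450820-125438405), from TRMT12 to TRIB1. It included SQLE, RNF139 (12.8 ± 1.33 against 40.6 ± 3.22 CPM), NDUFB9 (21.5 ± 1.01 against 90.7 ± 5.64 CPM) and MTSS1 (1.76 ± 0.422 against 61.1 ± 0.404 CPM). Some of the other runs held members of a gene family: 8 genes of the HOXC cluster and its neighbour SMUG1 on chromosome 12, 7 genes with MAGEA and CSAG members on the X chromosome, the cystatins CST3, CST4, CST1, CST2 and CST7 on chromosome 20, 7 zinc finger genes on chromosome 19 and the protocadherins of chromosome 5. Others did not, such as 8 genes from RPL7L1 to RRP36 on chromosome 6, higher in MDA-MB-231. A run of 7 genes higher in SUM159 on chromosome 3 held TP63, CLDN1 and IL1RAP.

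**Figure D5:**
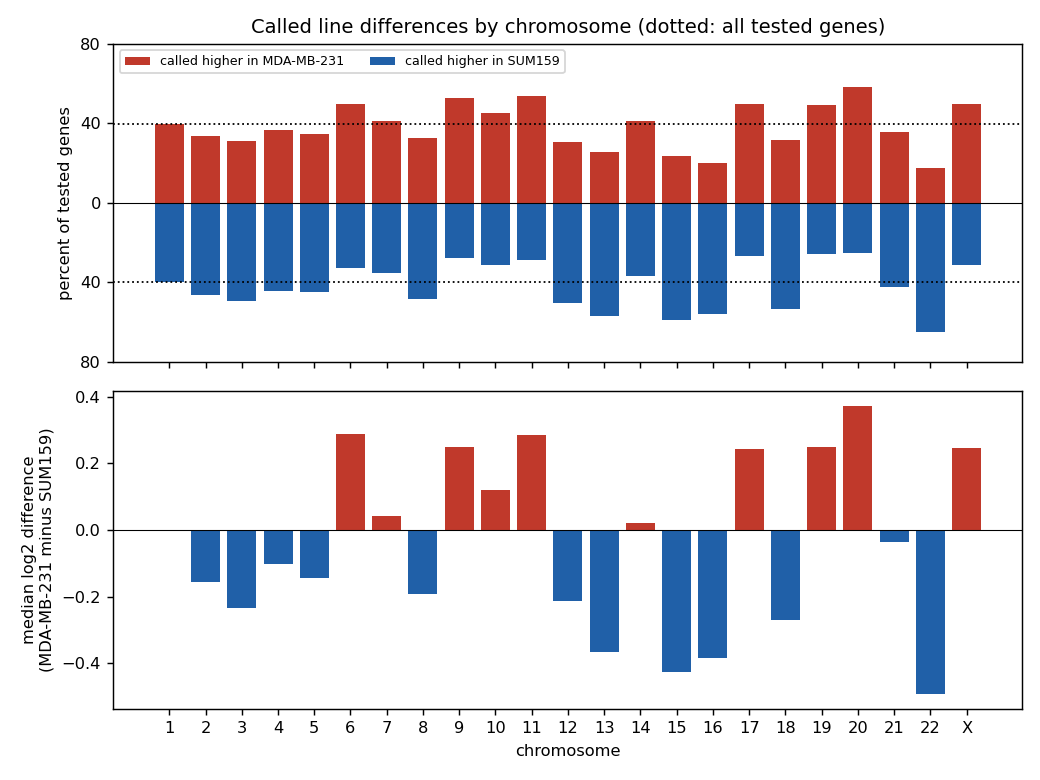
The upper panel gives, for each chromosome, the percent of tested genes called higher in MDA-MB-231 (red, upward) and in SUM159 (blue, downward), with dotted lines at 39.6% and 40.1%, the shares over all tested genes; the lower panel gives the median log2 difference. Chromosome 22 is lowest at -0.49 and chromosome 20 highest at 0.37.

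The neighbours IRX2 and C5orf38 on chromosome 5 were both higher in SUM159. They are read in opposite directions from starts 469 bases apart. C5orf38 gave 0.098, 0.055, 0.192 and 0 CPM in the MDA-MB-231 libraries and 775, 838, 775 and 761 CPM in those of SUM159 (ENSG00000186493; log2 difference -13.06, SE 0.12, adjusted p = 6.49e-26). Both were high in all 4 SUM159 libraries and at or under 0.735 CPM in all 4 of MDA-MB-231. Per kb of exon, IRX2 stood at 0.175 and 1194 CPM per kb and C5orf38 at 0.0448 and 409 CPM per kb in MDA-MB-231 and SUM159. The start of C5orf38 (chr5:2752131) lies outside the promoter of IRX2 printed here, so a shared start region was not shown or tested. That promoter is printed because it holds part of the stretch between the starts (chr5:2751628-2751927, minus strand, GRCh38.p14, RefSeq, 250 bases before to 50 after the start, gene strand), with each CG in capitals.
IRX2: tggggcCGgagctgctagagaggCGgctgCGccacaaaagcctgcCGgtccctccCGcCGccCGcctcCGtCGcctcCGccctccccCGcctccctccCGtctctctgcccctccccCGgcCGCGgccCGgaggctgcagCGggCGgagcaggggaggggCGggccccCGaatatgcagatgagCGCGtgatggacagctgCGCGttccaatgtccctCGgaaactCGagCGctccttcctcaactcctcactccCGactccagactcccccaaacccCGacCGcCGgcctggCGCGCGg
It holds 34 CG pairs and 73.3% G and C, and its observed-to-expected CG ratio was 0.875, against a median of 0.837 over the 10804 promoters of tested protein-coding genes. Promoters were found for 81.5% of those genes but for only 73.6% and 75.3% of the genes called at least 4-fold in each direction. A comparison of promoter features between these sets is therefore void, because too few members had a sequence.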

How the data were processed

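Poly(A) RNA was sequenced in 8 DMSO libraries, 4 of MDA-MB-231 and 4 of SUM159. The authors deposited 1 table of raw read counts per gene for 16 libraries, and only the 8 DMSO columns were used for the results. Per the submitters' processing notes, HISAT2 2.0.5, featureCounts 1.5.0-p3 and hg38 were used. How strand, overlaps and reads with several matches were counted is not given in the sources used here. Gene coordinates in the table equal those of GENCODE 29.

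The counts were tested as deposited with edgeR 4.0.16 (R 4.3.3, limma 3.58.1): filterByExpr, TMM scaling, the robust quasi-likelihood F test and Benjamini-Hochberg adjustment over 16286 genes. A call needed an adjusted p under 0.05, and a 4-fold call also a log2 difference of 2 or more. Intervals, floors and SDs cover the spread and counting error of these libraries only. Shares of counts were compared with a two-sided exact permutation test (scipy 1.17.1) and adjusted over 6 shares. The steps were tested on simulated data with far fewer differing genes than these lines had, so scaling under this many differences was not covered.

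The comparison, its gene lists and the rule for named genes were chosen with earlier results of these data known. By rule the text names Src family kinases and fixed line markers, the most abundant line-restricted and 4-fold genes of each line, and the 3 most changed members of each list in each direction. It also names the most abundant noncoding genes and the genes of the longest runs; some of the genes the rule picks are not reported here. Named outside the rule, after their values were seen, are ZEB1, ZEB2, SNAI2, CLDN4, GRHL2, ESRP1, TP63, COL1A1, MMP14, NOTCH3, CT83, CIITA, B2M, CD274, IFIT1, ISG15, IFI6, IFITM3, BST2, IRF9, CDH5, PTPRC, CD14, MT1A, MT1F, MT-CO1 and MT-CO3. Replicate numbers did not pair the libraries: same-number correlations of deviations ran from -0.033 to 0.059. Alternatives were other scalings, filters, thresholds and depths, DESeq2 1.42.0, limma-voom, a replicate block, all 16 libraries and each library left out.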

Additional observations from a re-analysis of the deposited data

Results flagged for a closer look

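In groups of 4 libraries, single values were marked where the highest or lowest library stood apart from the other 3, with a gap above Dixon's 95% limit for 4 values. Of 471 groups of the named genes, 19 were marked (4.03%), close to the 1 in 20 that chance gives. In SUM159 replicate 1, the deepest library, 8 values stood apart. AURKA was at 88.3 CPM against 76.9 to 77.3 in the others, CDT1 at 73.1 against 67.3 to 67.8, KRT34 at 8.26 against 7.13 to 7.27, CDH13 at 237.8 against 215.1 to 218 and HOXC13 at 34.3 against 30.4 to 30.9. S100A4 was lower there, at 87.1 against 99.2 to 100.9 CPM, as were MT-ND3 at 372.9 against 438 to 444.4 and S100A2 at 220.3 against 264.2 to 272.1.

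In SUM159 replicate 2, TRAF1 was at 12 CPM against 8.20 to 8.68 and CLDN1 at 33.1 against 28.6 to 29.4. In SUM159 replicate 3, EGFR was at 429.5 CPM against 456.2 to 460.8, PDGFRA at 15.3 against 17.5 to 18.0 and FAS, a death receptor, at 17.4 against 14.8 to 15.2. The EGFR value is the one that brings the lines into overlap.

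In MDA-MB-231 replicate 1, CD44 was at 641.8 CPM against 612.2 to 614.5, TIMP3 at 709.8 against 690.3 to 692.4 and FLNC at 627.1 against 690.3 to 700.8. Replicate 2 stood apart in COL1A2, at 32.2 against 30.3 to 30.6 CPM, and in GADD45B, at 38.4 against 30.2 to 31.4, and replicate 3 in MFAP2, at 8.93 against 11.2 to 11.5. Apart from EGFR and CD44, each of these genes differed between the lines by far more than the gap.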

How the results depend on the processing

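The numbers of calls held within 1.5 times of the values given under the other scalings, DESeq2, limma-voom, all 16 libraries, thinning to the shallowest library and each library left out. With 1 library left out, calls ran from 6363 to 6563 higher in MDA-MB-231 and from 6492 to 6617 higher in SUM159, 4-fold calls from 1670 to 1771 and from 1567 to 1701, and line-restricted genes from 174 to 185 and from 214 to 221. Across the refits listed, at least 96.0% of calls and 93.9% of 4-fold calls were shared with the values given, and 0 changed sign. Without the low-count filter, 4-fold calls numbered 2897 in MDA-MB-231 and 2889 in SUM159, where more low genes were tested. At a 2-fold rule they numbered 2985 and 3016. Line-restricted genes numbered 339 and 349 with up to 0.5 CPM allowed in the lower line, and 303 and 354 with at least 2 CPM in the higher line.

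With the replicate block, which the check of the numbers does not back, 6424 and 6459 genes were called and 12804 calls were shared; 4-fold calls were 1632 and 1536. For the genes named by rule, 5691 values under alternatives kept their call status, 15 lost the call and 0 reversed. Genes named outside the rule are not in this tally. YES1 lost its call without the filter (adjusted p = 0.0575), with all 16 libraries (0.0579) and without MDA-MB-231 replicate 1 or 2 (0.067, 0.124), and EGFR in 5 settings (0.0641 to 0.107). At an adjusted p under 0.01, YES1, EGFR, ERBB2, MT-ND6 and CBS were not called. Nor were MT-CO1 and MT-CO3, which were named outside the rule.

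Of the list medians under alternatives, 626 stayed within the spread between libraries, 89 moved and 5 reversed: EGFR family from 0.89 to -0.10, RAS and PI3K genes from 0.064 to -0.061 and tubulins from 0.27 to -0.024 without the filter, and chemokines from -0.038 to 0.16 without MDA-MB-231 replicate 2 and 0.19 without SUM159 replicate 3. Medians of the chemokines, the SRF contractile genes and the fatty acid genes also changed sign within that spread, to values between -0.031 and 0.020. With 1 library left out, 4-fold counts of 0 or 1 moved by 1 in the imprinted, fibroblast, class I, fatty acid and mitochondrially encoded lists. The cause was not tested. The difference in mitochondrial mRNA share ran from -0.14 to 0.39 percentage points with 1 library left out, and reversed to -0.051 without MDA-MB-231 replicate 1 and to -0.14 and -0.013 without SUM159 replicate 2 or 3. With 3 libraries against 4 an exact test of the shares cannot pass the adjusted threshold. Depth limits genes near 0.0339 to 0.0370 CPM.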

Other observations

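Contractile genes under serum response factor showed another exchange. Of the list, 11 of 23 tested members were called higher in MDA-MB-231 and 9 higher in SUM159, 4 and 2 of them at least 4-fold (26.1% against 19.4% of all genes), with a median log2 difference of 0.052 (-0.031 to 0.083 with 1 library left out). The tropomyosins TPM2 and TPM1, which coat actin filaments, were higher in SUM159, at 13.8 ± 1.41 against 332 ± 11.4 CPM (log2 difference -4.58, SE 0.06, adjusted p = 9.87e-24) and 82.2 ± 2.89 against 326 ± 5.1 CPM, as was the non-muscle myosin heavy chain MYH9 (2474 ± 82.3 against 4711 ± 383 CPM). FHL1, a LIM-domain protein of muscle, was higher in MDA-MB-231 (24.6 ± 0.74 against 2.06 ± 0.831 CPM; log2 difference 3.50, SE 0.17, adjusted p = 1.49e-12). The actin-bundling protein fascin, FSCN1, tied to filopodia, gave 71.8, 80.1, 74.5 and 84.1 CPM in the MDA-MB-231 libraries and 893, 1007, 1033 and 922 CPM in those of SUM159 (log2 difference -3.63, SE 0.059, adjusted p = 1.18e-21). Its libraries did not overlap and were higher in SUM159.

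The SUM159 libraries did not scatter alike in every gene. On the second principal component, with 1.04% of the variance, replicates 1 and 4 scored 14.3 and 20.5 and replicates 2 and 3 -27.6 and -7.33, while the 4 MDA-MB-231 libraries lay between -5.07 and 6.66. CBS followed the same order and gave 22.9 ± 15.3 CPM with replicates 2 and 3 at 38.9 and 32.9 CPM and replicates 1 and 4 at 11 and 8.62 CPM. CBS was chosen here after its values were seen, the labels give no group within the line, and no test was made. The library depths, 15876171 and 22331423 counts for replicates 2 and 3 against 36261542 and 17357288 for replicates 1 and 4, do not separate the pairs.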
